A study of Mus musculus with 101 samples.

Results

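The comparison described here is between XY primordial germ cells of F1 mouse embryos at E13.5 whose dams had received benzo[a]pyrene (BaP) at 0.2 mg/kg-day and XY germ cells of F1 embryos whose dams had received oil alone. Members were chosen by label, as the F1 embryos of these dose groups that were labelled male, and they number 11 of the 101 embryos in the series. The series measured mRNA by sequencing in germ cells of F1, F2 and F3 embryos of both sexes after F0 dams were dosed by mouth with oil or with BaP at 1 of 3 daily doses (0.033, 0.2 and 2 mg/kg-day). All embryos carried the OG2 transgene, in which Pou5f1 regulatory sequence drives EGFP, and the cells were enriched for EGFP by flow sorting. The exposed group held 6 XY embryos from 5 dams, D1190.1 and D1190.2 being littermates, and the vehicle group held 5 XY embryos from 5 dams. In F1 the dams were dosed from E6.5 to E11.5, so the embryos were exposed in utero and dosing had ended before collection. Transcripts known from somatic cells were still read in the sorted cells, as described below, and each library is one embryo.

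BaP is a polycyclic aromatic hydrocarbon that binds the aryl hydrocarbon receptor (AHR), which then pairs with ARNT and turns on genes such as Cyp1a1, Cyp1b1 and Tiparp. The enzymes it induces oxidize BaP to forms that react with DNA and leave bulky adducts, which nucleotide excision repair removes and to which p53 responds. At this stage XY germ cells lie inside forming testis cords among Sertoli cells, still express pluripotency genes and are moving toward mitotic arrest, while XX germ cells enter meiosis.

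Depth differed between embryos. The reads given here are those assigned to genes, as recovered from the normalized values, and not the number sequenced or aligned. The vehicle group had 23833292 (C3774.3), 87240533 (C4232.2), 8073992 (C4321.1), 8868771 (C4605.1) and 8090014 (D2580.2) reads. The exposed group ranged from 6209687 to 23862210 reads with a median of 7891268, the highest being C4228.1. C3774.3, C4232.2 and C4228.1 exceeded 20000000 reads and are called deep below, with the other F1 libraries above that number. Genes with at least 1 read numbered 14250 to 15422 in the vehicle group and 14044 to 15268 in the exposed group, of 15423. A single read was worth 0.00959 normalized counts in the deepest library, C4232.2, and 0.173 in the shallowest, D2506.3.

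Libraries C3774.3 (vehicle) and C4228.1 (exposed) stood apart from the other 9, 1 in each group. On the first principal component, which held 31.8% of the variance, they lay at -78.9 and -71.7, and the other 9 lay between 5.48 and 32.9. Of the 13635 genes tested, 951 (6.97%) were higher in both than in each of the other 9 with a mean log2 difference of at least 1, and 647 (4.75%) were lower in the same way. Ubb, a polyubiquitin gene, stood at 114100 and 132690 normalized counts in this pair and at 28231 to 44671 in the rest. Its copy Gm1821 stood at 117800 and 138130 in the pair and at 30527 to 47428 in the rest. These genes may share reads, and how far they do was not tested. Pkm, the glycolytic pyruvate kinase, stood at 88.2 and 80.2 against 142 to 380, and Cct3, a chaperonin subunit, at 298 and 269 against 430 to 744. Most counts of genes and medians of lists are therefore given with all 11 embryos, without the deep F1 libraries and without this pair, and other values with all 11 unless stated. Both reduced settings were chosen after seeing the data.

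**Figure D1:**
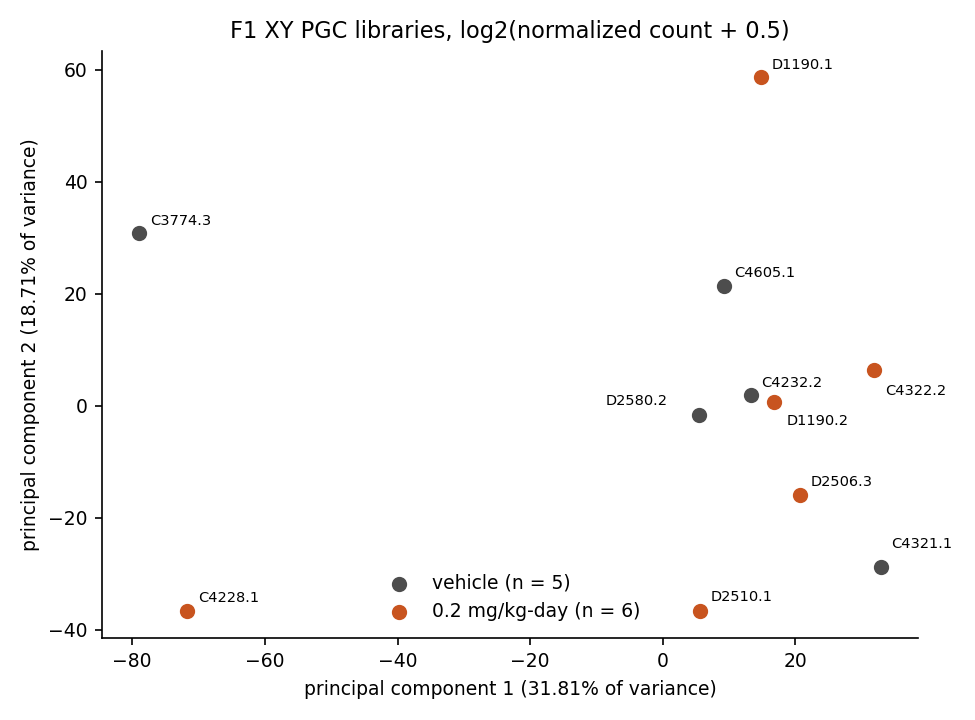
Principal components 1 (31.8% of the variance) and 2 (18.7%) of the 11 XY embryos, vehicle and 0.2 mg/kg-day, over the 13635 genes tested. C3774.3 and C4228.1 lie apart from the other 9 on component 1, and vehicle and exposed embryos intermingle among those 9.

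The germ cell label held in all 11 embryos. All 12 germ cell markers were above 3 reads in each library, with a summed level of 5864, 3889, 4445, 4428 and 4247 normalized counts in the vehicle embryos and 3782 to 6874 (median 5083) in the exposed embryos. Dppa3, known for protecting maternal DNA methylation in the zygote, contributed the most counts. The sums of the groups overlapped, and the exact permutation p for their difference was 0.433. The Y-linked translation factor gene Eif2s3y stood at 140 to 254 normalized counts in the 11 embryos. Xist, the RNA that silences the inactive X, stood at 1.49 or less and at 0 in D2506.3. Xist had a log2 fold change of -0.72 (95% interval -1.46 to 0.02).

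No gene passed the test between exposed and vehicle XY germ cells. With limma, 0 of 13635 genes reached an adjusted p under 0.05, and the smallest adjusted p was 0.9998. At an unadjusted p under 0.05 there were 159 genes (1.17%), of which 69 (0.506%) were higher and 90 (0.66%) lower in the exposed embryos. The share of 1.17% is below the 0.05 that the threshold nominally sets when no gene differs. On the log2 scale 7058 genes (51.8%) lay above 0, against 49.3% with both edgeR tests and 49.5% without the deep libraries, so neither side held a steady majority. Both edgeR tests also gave 0, with 189 genes at an unadjusted p under 0.05 by quasi-likelihood (55 higher, 134 lower) and 223 by likelihood ratio (68 and 155). DESeq2 gave 219 such genes (76 and 143) and 1 past the adjusted threshold, the embryonic globin gene Hbb-y (adjusted p = 1.88e-05). Hbb-y, named after its values were seen, had 0 reads in the 6 exposed embryos and 0.130, 0.0288, 0, 0 and 0 normalized counts in the vehicle embryos, so this call rests on at most 3 reads per library. Without the deep libraries limma again gave 0, with 183 genes at an unadjusted p under 0.05 (69 and 114), and without C3774.3 and C4228.1 it gave 0, with 113 (36 and 77). The count of 159 became 244 without C4321.1, with 154 higher and 90 lower, 304 without D1190.1 and 319 with depth as a term of the fit. It became 99 with these 2 groups alone in the fit, 107 with the 4 XY groups alone and 58 over genes with a mean of at least 5.

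For most genes the 95% interval lay within 1 log2 unit of 0, on the scale of log2 of the value plus 0.5. The added 0.5 pulls the differences of low genes toward 0, so for those genes the interval does not bound the ratio between the groups. The spread behind these intervals was that of the fit over all F1 embryos, not of these 6 and 5 alone. The standard error of the log2 fold change had a median of 0.30 over the genes tested. For 10368 genes (76.0%) both ends of the 95% interval lay within 1 log2 unit of 0. Intervals here and below are those of limma for a single gene, not adjusted for the number of genes. Among the 8371 genes with a mean of at least 5 normalized counts this held for 7411 (88.5%), with a median standard error of 0.25.

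The genes nearest to a difference in the upward direction had mixed functions, and none of them passed the test. Lass6, a ceramide synthase gene also called Cers6 (chr2:68861145-69114284, RefSeq on GRCm38.p6), stood at 0.845, 8.23, 5.25, 4.26 and 4.66 normalized counts in the vehicle embryos and at 5.88 to 15.3 (median 7.27) in the exposed embryos. Its lowest value was in C3774.3 and its highest in C4228.1, the libraries that stood apart, and C4232.2 overlapped the exposed range. The log2 fold change was 1.02 (standard error 0.34, 95% interval 0.34 to 1.71), 0.62 without the deep libraries and 0.43 without that pair. Slc19a2, which encodes a thiamine transporter, stood at 3.18, 4.12, 4.25, 5.87 and 6.12 in the vehicle embryos and at 5.88 to 14.3 (median 7.02) in the exposed embryos. D2580.2 alone among vehicle embryos reached the exposed range, and D2510.1 held the highest exposed value. Its log2 fold change was 0.75 (standard error 0.29, 95% interval 0.15 to 1.35), and 0.67 without C3774.3 and C4228.1.

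Bbs7 codes for a subunit of the complex that moves membrane proteins into cilia. Its vehicle values were 3.12, 8.80, 4.02, 6.79 and 9.18 normalized counts and its exposed values 8.08 to 14.5 (median 10.04), a log2 fold change of 0.75 (standard error 0.29, 95% interval 0.16 to 1.34). C4232.2 and D2580.2 overlapped the exposed range. Mcam, a cell adhesion molecule of vessels and other tissues, stood at 6.76, 6.84, 8.60, 3.45 and 8.52 against 7.80 to 15.4 (median 9.28). The vehicle embryos C4321.1 and D2580.2 lay inside the exposed range, and the log2 fold change was 0.59, 0.68 without the deep libraries and 0.66 without the pair that stood apart. Cd59a, an inhibitor of complement held in the membrane, ran from 6.51 to 35.4 in the vehicle embryos and from 11.3 to 64.4 in the exposed embryos, with C4232.2, C4321.1 and the exposed C4322.2 low. Its log2 fold change was 1.08 (standard error 0.50, 95% interval 0.08 to 2.09).

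Some other genes in this direction moved toward 0 without C3774.3 and C4228.1, a setting that removes an embryo from each group. Fyn, a kinase of the Src family, stood at 0.845 normalized counts in C3774.3, at 3.06 to 7.82 in the other vehicle embryos and at 4.82 to 7.27 in the exposed embryos. Its log2 fold change was 0.77 with all embryos and 0.34 without C3774.3 and C4228.1. Klhl28 stood at 1.43 in C3774.3 and gave 0.66 with all embryos and 0.15 without the pair. B2m, the invariant chain of class I major histocompatibility molecules, stood at 1.04 in C3774.3 and gave 0.92 and 0.32. The remaining genes of this set, Pxk, Rbm12b2, Usp2 and Chm, had log2 fold changes of 0.59 to 0.68.

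In the downward direction the genes were again of mixed function. Arhgef7, an exchange factor for the GTPases Rac and Cdc42, stood at 6.43, 6.24, 9.72, 6.67 and 8.52 normalized counts in the vehicle embryos and at 2.47 to 7.84 (median 4.86) in the exposed embryos. Only the exposed D1190.1 entered the vehicle range. The log2 fold change was -0.60 (standard error 0.23, 95% interval -1.08 to -0.13), -0.58 without the deep libraries and -0.49 without the pair that stood apart. Cyp4f16, a cytochrome P450 gene of the family that hydroxylates fatty acids, stood at 6.5, 7.02, 10.1, 7.59 and 6.39 against 2.94 to 9.56 (median 4.40). The exposed value of 9.56 was that of C4228.1, the other 5 lying below every vehicle embryo, and the log2 fold change went from -0.62 to -0.90 without the deep libraries. Gnb2, a beta subunit of heterotrimeric G proteins, stood at 17.0, 24.4, 27.4, 14.8 and 23.4 against 7.82 to 20.2 (median 13.5). D2506.3 and D2510.1 overlapped the vehicle range, and the log2 fold change was -0.68 (standard error 0.28, 95% interval -1.24 to -0.12).

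Naf1, an assembly factor for the ribonucleoproteins that guide RNA pseudouridylation, stood at 12.2, 10.8, 5.70, 5.64 and 5.32 normalized counts in the vehicle embryos and 2.67 to 6.30 (median 4.68) in the exposed embryos. Its high values were in the deep libraries C3774.3 and C4232.2, and the log2 fold change was -0.74 with them and -0.23 without the deep libraries. Ddx19b, a helicase of mRNA export, stood at 72.0 in C3774.3, at 31.1 to 44.4 in the other vehicle embryos and at 15.3 to 60.7 in the exposed embryos. Its highest exposed value belonged to D1190.1, and the log2 fold change of -0.59 was -0.23 without C3774.3 and C4228.1. Sema4d, a semaphorin gene, stood at 13.1 in C3774.3 and 4.52 to 5.75 in the other vehicle embryos, against 2.77 to 5.51 in the exposed embryos (log2 fold change -0.60). Dgke and Sh3bp4, for a diacylglycerol kinase and an endocytic adaptor, each gave -0.64.

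Some genes of this set share reads with a copy or may do so, and their values are uncertain for that reason. Cphx, a homeobox gene transcribed in oocytes and early embryos, carried the same values as Gm2104: 36.8, 29.99, 27.6, 21.2 and 11.4 normalized counts in the vehicle embryos and 7.29 to 32.0 (median 12.99) in the exposed embryos. D1190.1 was the high exposed embryo and D2580.2 the low vehicle embryo, and the log2 fold change was -0.76, or -0.35 without the deep libraries. LOC100862398 and LOC100862365, which resemble the Rbmy family of testis RNA-binding proteins, gave -1.09 and -1.10, with high values of 27.9 and 30.7 in the exposed C4228.1. How far these LOC genes share reads was not tested.

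**Figure D2:**
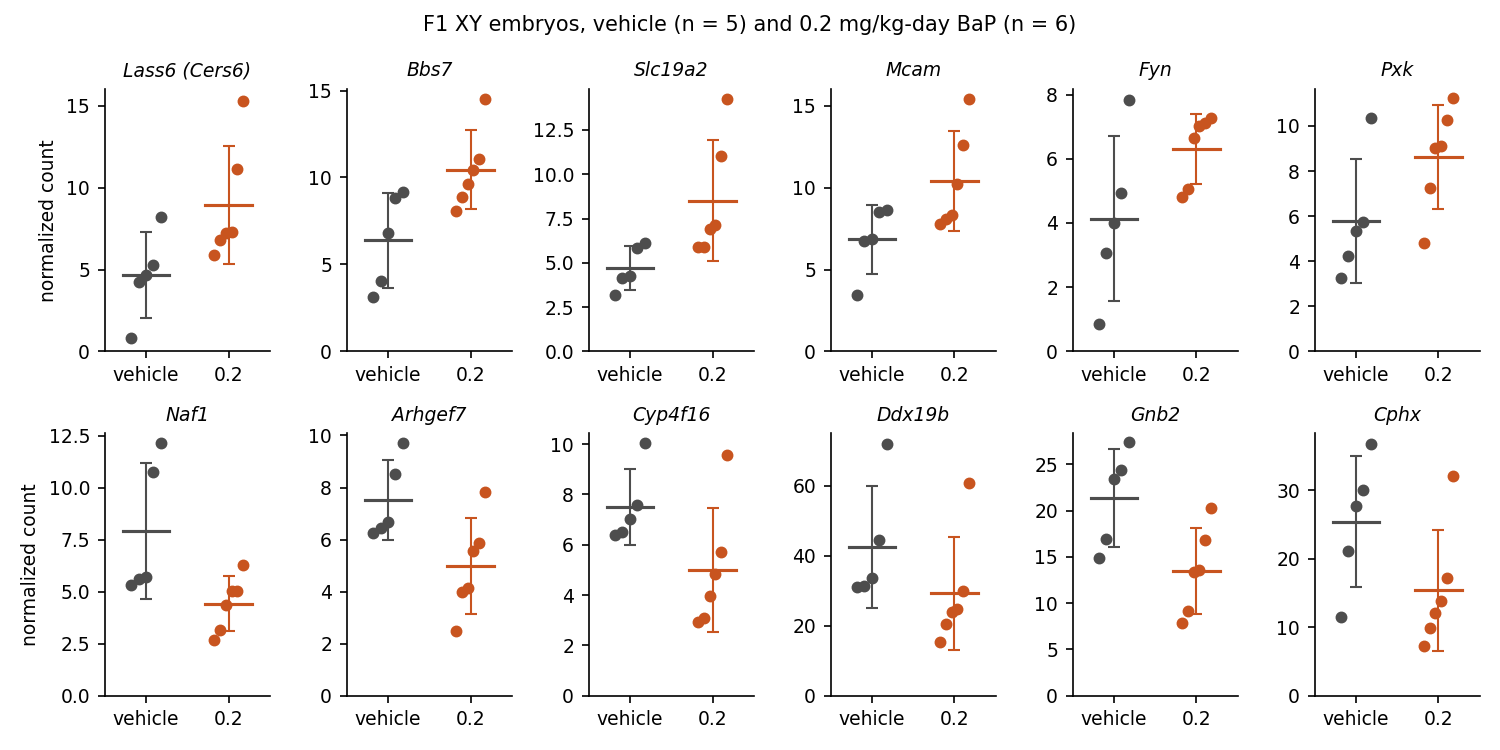
Normalized counts in each XY embryo, vehicle (5) and 0.2 mg/kg-day (6), for 6 genes higher and 6 lower in the exposed embryos; lines are means and bars standard deviations. None of these genes passed the adjusted threshold, and C3774.3 or C4228.1 holds the extreme value in several panels, such as Lass6 and Naf1.

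The exposed and vehicle values did not overlap for 9 genes (0.066% of those tested), 3 higher and 6 lower. For a gene without ties and independent embryos in random order, the probability of no overlap is 0.00433. The share seen was below that. Lamp2, a lysosomal membrane protein on the X chromosome (chrX:38399647-38456460), stood at 28.0, 35.8, 30.4, 36.6 and 33.3 normalized counts in the vehicle embryos and at 38.3 to 55.7 (median 45.1) in the exposed embryos, a log2 fold change of 0.47 (standard error 0.18, 95% interval 0.10 to 0.83). Arl2bp, a partner of a small GTPase, stood at 4.61 to 6.78 against 6.96 to 11.2, and Tor1b, an ATPase of the nuclear envelope and endoplasmic reticulum, at 6.17 to 7.85 against 7.96 to 10.9. Ccdc57 (chr11:120826529-120932926), a centrosomal protein gene, stood at 7.41, 4.82, 4.36, 4.03 and 3.73 against 1.90 to 3.54 (median 3.10). It had the log2 fold change -0.66 (standard error 0.22, 95% interval -1.10 to -0.22), and -0.51 without the deep libraries. Phc3, a polycomb repressor subunit, stood at 1.82 to 4.13 against 0.802 to 1.80. Zbtb8b, Sipa1l3, Cttnbp2 and A730020E08Rik completed the set at log2 fold changes of -0.64, -0.78, -0.77 and -0.44. None of the 9 passed the test.

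The AHR battery, the genes through which the receptor's activation is usually read, gave no call. Of 20 members 14 were tested, 10 lay above 0 (9 without the deep libraries and 8 without C3774.3 and C4228.1), 0 had an adjusted p under 0.05, and the median log2 fold change was 0.03, 0.04 and 0.09 in these settings, beside 0.01 for all genes tested with all embryos. Cyp1a1 and Ahrr were too low to be tested. Tiparp, which the receptor induces and which feeds back on it, stood at 16.6, 23.2, 14.5, 22 and 17.0 normalized counts in the vehicle embryos and at 15.3 to 35.9 (median 21.6) in the exposed embryos. The groups overlapped almost fully, with D1190.1 highest, and the log2 fold change was 0.23 (95% interval -0.31 to 0.76). Cyp1b1, a P450 that activates BaP, stood at 2.53, 0.345, 0.335, 1.5 and 0.798 against 0.173 to 1.17 (median 0.927). Its highest value was in the vehicle embryo C3774.3, and the log2 fold change was -0.23 (95% interval -0.96 to 0.50). Nqo1, a quinone reductase under AHR and NRF2, stood at 20.7, 14.7, 10.5, 22.2 and 18.9 against 10.3 to 19.7 (median 17.1), a log2 fold change of -0.09 (95% interval -0.59 to 0.41).

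The receptor itself and its partners were present. Ahr stood at 8.12, 3.91, 3.91, 2.99 and 1.73 normalized counts in the vehicle embryos and 2.41 to 5.09 in the exposed embryos, with C3774.3 the highest (log2 fold change 0.01, 95% interval -0.53 to 0.56). Arnt stood at 5.18 to 9.94 against 1.47 to 9.0, the low value being that of C4228.1. Its log2 fold change of -0.36 turned to 0.13 without the deep libraries and 0.08 without C3774.3 and C4228.1. The chaperone partners Hsp90ab1 and Ptges3 had log2 fold changes of 0.05 and 0.02, and Nfe2l2, which encodes NRF2, had 0.33. The conjugating and hydrolysing enzymes Ugt1a6a, Gsta1 and Ephx1 had -0.32, 0.05 and 0.02, and Slc7a5 and Lpcat2, an amino acid transporter and a lysophospholipid acyltransferase, had 0.27 and 0.21. The interval for Gsta1 was wide (-1.02 to 1.12), with 8.62 normalized counts in C4228.1 and 0.318 to 1.90 in the other exposed embryos. Gsta1 and Lpcat2 turned to -0.85 and -0.22 without the deep libraries and to -0.84 and -0.27 without C3774.3 and C4228.1. The signs of Ahr, Ephx1, Hsp90ab1, Ptges3, Ugt1a6a, Cyp1b1 and Nqo1 also turned under some setting or without a single embryo.

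The core of the sequence that AHR and ARNT bind, GCGTG on either strand, was looked for in the RefSeq promoter window of 300 bases (set as 250 before the start and 50 after). The windows of Arnt and Lpcat2 began less than 250 bases before the start of the gene. The motif occurred in 8 of the 14 battery members with a promoter in the table, among them Tiparp, Cyp1b1, Arnt, Cyp1a1 and Ahrr, and in 10639 of all 32851 promoters (32.4%). The windows of Nqo1 and Nfe2l2 held none. The promoters of Tiparp (chr3:65528197-65528496, plus strand) and Cyp1b1 (chr17:79715012-79715311, minus strand) are shown because both genes are induced by the receptor, were measured here and hold the motif, on GRCm38.p6, with the motif in capitals (CACGC is its reverse complement). A match describes the letters of the window and is no evidence of binding.
Tiparp: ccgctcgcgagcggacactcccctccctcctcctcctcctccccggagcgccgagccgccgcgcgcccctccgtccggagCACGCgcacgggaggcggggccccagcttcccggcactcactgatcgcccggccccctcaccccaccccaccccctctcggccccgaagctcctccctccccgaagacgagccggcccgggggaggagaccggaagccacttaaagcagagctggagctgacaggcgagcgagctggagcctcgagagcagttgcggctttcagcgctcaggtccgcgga
Cyp1b1: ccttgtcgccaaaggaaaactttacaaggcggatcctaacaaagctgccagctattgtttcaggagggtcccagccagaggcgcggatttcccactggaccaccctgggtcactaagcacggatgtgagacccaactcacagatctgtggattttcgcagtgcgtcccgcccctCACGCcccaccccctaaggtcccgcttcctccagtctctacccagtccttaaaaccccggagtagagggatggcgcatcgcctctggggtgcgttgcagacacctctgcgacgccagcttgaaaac

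Genes of male germ cell fate and of pluripotency, the programs that XY germ cells are passing between at this age, had list medians near 0. Of 29 tested fate genes 13 lay above 0 with a median log2 fold change of -0.04, against 12 without the deep libraries and 12 without C3774.3 and C4228.1. Of 20 pluripotency genes 7 lay above 0 with a median of -0.03, but 11 and 16 in those settings, so the direction of that list turned. No member of either list had an adjusted p under 0.05. The medians were -0.06 (fate) and 0.05 (pluripotency) without the deep libraries, and -0.06 and 0.08 without the pair. Spred1, an inhibitor of Ras signalling, and Acvr2b, an activin receptor, were the fate genes with the smallest p in each direction at 0.21 and -0.53. Klf4 and Trim71 held that place among pluripotency genes, at 0.57 and -0.36. Klf4 stood at 10.9 normalized counts in C4228.1 and 2.25 to 5.80 in the other exposed embryos, against 1.46 to 4.02 in the vehicle embryos.

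Tdgf1, a coreceptor of Nodal signalling, stood at 35.7, 19.1, 10.6, 23.2 and 15 normalized counts in the vehicle embryos and at 11.1 to 53.4 (median 18.9) in the exposed embryos. Vehicle values lay inside the exposed range except that of C4321.1, and the highest was D1190.1, whose littermate D1190.2 stood at 27.0. The log2 fold change was 0.06 (95% interval -0.79 to 0.90). Lefty2, an inhibitor of Nodal, stood at 88.1, 84.0, 65.2, 93.8 and 88.2 against 68.0 to 143 (median 77.0), with D1190.1 again the highest (0.04, 95% interval -0.64 to 0.72). The RNA-binding germ cell genes Nanos3, Ddx4 and Dazl had log2 fold changes of 0.04, 0.14 and 0.05, and Lhx1, a homeobox gene, had -0.18. Of the genes in this paragraph all but Ddx4 turned in sign under some setting or without a single embryo. Ddx4 stood at 222 to 452 normalized counts in the vehicle embryos and at 212 to 527 in the exposed embryos, and Dazl at 669 to 1376 and 715 to 1193.

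Stra8, the gatekeeper of meiotic entry, was uneven among the vehicle embryos. It stood at 14.1 in C4232.2 and 7.38 in C4321.1, and at 0.520, 0.115 and 0 normalized counts in C3774.3, C4605.1 and D2580.2. The exposed embryos ran from 0.318 to 2.11 (median 1.37), between these vehicle extremes. XX vehicle embryos of the same generation held a mean of 447 normalized counts, so the higher XY values were still far below XX levels. With limma the log2 fold change was -0.30 (95% interval -1.55 to 0.95), and it turned to 0.25 without the deep libraries and to 0.17 with a pseudocount of 0.1. Spata22, a factor of meiotic recombination, stood at 1.01 in C4232.2 and at 0.224 or less in the other 10 embryos. Over the 27 meiosis genes tested 11 lay above 0 with a median of -0.04, 16 with 0.03 without the deep libraries and 9 with -0.13 without C3774.3 and C4228.1. Hormad2, a protein of the meiotic chromosome axis, had 0.25.

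Genes that answer DNA damage gave no call. Of 31 tested p53 targets 24 lay above 0 (22 without the deep libraries, 23 without the pair that stood apart), the median log2 fold change being 0.11, 0.12 without the deep libraries and 0.16 without C3774.3 and C4228.1, and 0 passed the adjusted threshold. Psrc1, a spindle protein, had the smallest p among those above 0: it stood at 1.17, 4.87, 2.12, 3.57 and 6.92 normalized counts in the vehicle embryos and at 3.16 to 13.7 (median 4.22) in the exposed embryos. The groups overlapped, D1190.1 being high and C3774.3 low, and the log2 fold change was 0.66 (standard error 0.39, 95% interval -0.14 to 1.46). D1190.1 was also the highest over the whole p53 list, with a mean log2 value of 4.52. The other exposed embryos averaged 3.74 to 3.96, inside the vehicle range of 3.55 to 4.03. Both reduced settings keep D1190.1. The 42 genes for repair of bulky adducts and crosslinks had 23 above 0 and a median of 0.00, with 27 and 28 above 0 in those settings (medians 0.04 and 0.06). Xpc, which recognizes adducts, had -0.22, Ercc2, a helicase of excision repair, -0.43, and Palb2, a partner of the BRCA proteins, 0.28.

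Cell death and redox genes were similar. Of 24 genes of the BCL2 family and caspases 9 lay above 0, with a median log2 fold change of -0.01, and 12 both without the deep libraries (-0.01) and without C3774.3 and C4228.1 (0.02). The survival genes Bcl2l2 and Bcl2 had 0.60 and -0.55, both from low levels, at most 2.65 and 1.04 normalized counts in any of the 11 embryos. Of 32 NRF2 and glutathione genes 19 lay above 0, with a median of 0.04, against 15 (-0.02) and 17 (0.06) in those settings. Gclc, the catalytic subunit of glutathione synthesis, stood at 44.3, 24, 20.5, 35.5 and 27.5 in the vehicle embryos and at 18.5 to 47.0 (median 21.3) in the exposed embryos, with C3774.3 and D1190.1 high in their groups (log2 fold change -0.23).

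Cholesterol synthesis genes lay mostly above 0. Of 22 tested genes 18 lay above 0 (15 without the deep libraries, 17 without the pair that stood apart), with a median log2 fold change of 0.16, 0.09 without the deep libraries and 0.11 without C3774.3 and C4228.1; 2 had an unadjusted p under 0.05, a share to be read beside 1.17% of all genes, and 0 an adjusted one. Cyp51, the lanosterol demethylase, stood at 15.8, 20.5, 19.2, 31.5 and 17.6 normalized counts in the vehicle embryos and 21.7 to 31.4 (median 27.7) in the exposed embryos. All vehicle embryos but C4605.1 lay below the exposed range, and the log2 fold change was 0.38 (standard error 0.18, 95% interval 0.02 to 0.74). Srebf2, which activates these genes, had -0.26 with all embryos and 0.05 without the deep libraries.

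Glycolysis genes had 9 of 23 above 0 and a median log2 fold change of -0.04, 11 and -0.01 without the deep libraries, and 15 and 0.06 without C3774.3 and C4228.1. Ldha, for lactate dehydrogenase, stood at 2.14 normalized counts in C4228.1, at 7.38 to 23.1 in the other exposed embryos and at 11.6 to 19.4 in the vehicle embryos, and its log2 fold change of -0.65 was -0.23 without C3774.3 and C4228.1. Among the 22 genes of the amino acid stress response 14 lay above 0, with a median of 0.07, against 14 (0.05) and 13 (0.01) in those settings. Cebpb (chr2:167688915-167690432), a leucine zipper factor of stress and differentiation, stood at 3.38, 9.45, 2.68, 3.34 and 3.46 in the vehicle embryos and at 1.27 to 3.28 (median 1.92) in the exposed embryos. Only the exposed D1190.1 reached the vehicle range, and C4232.2 was far above its group. The log2 fold change was -0.85 (standard error 0.30, 95% interval -1.46 to -0.24), -0.44 without the deep libraries and -0.80 without the pair that stood apart, and the gene did not pass adjustment.

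Genes for respiratory chain subunits and cytosolic ribosomal proteins had a direction that turned without the deep libraries. Of 81 respiratory genes 72 lay above 0 with a median log2 fold change of 0.17, and of 84 ribosomal genes 70 lay above 0 with a median of 0.14. Without the deep libraries only 15 and 3 lay above 0 and the medians were -0.10 and -0.14. Without C3774.3 and C4228.1, which keeps the deep vehicle library C4232.2, 72 and 70 lay above 0 and the medians were 0.20 and 0.13. C4232.2 was the low one: Uqcrb, a subunit of complex III, stood at 536, 241, 617, 624 and 700 normalized counts in the vehicle embryos and at 463 to 1056 (median 632) in the exposed embryos, and Rps27l, a ribosomal protein paralog that p53 induces, at 1140, 374, 752, 980 and 1237 against 666 to 1526 (median 1060). The values of the other embryos overlapped between the groups for both genes. The part of depth in these lists was not tested beyond these settings.

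**Figure D3:**
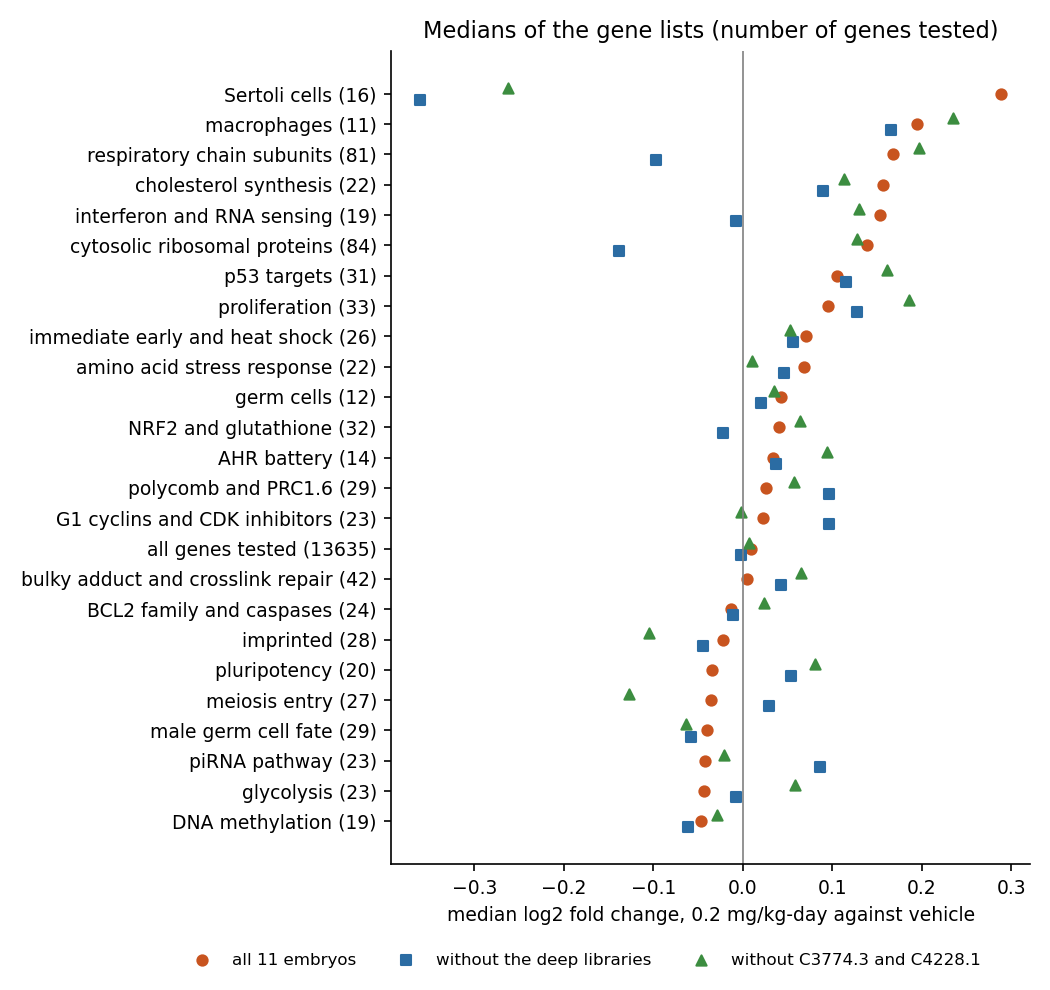
Median log2 fold change of exposed against vehicle XY embryos for the gene lists with at least 11 genes tested, with that number. Values are from all 11 embryos, without the deep libraries and without C3774.3 and C4228.1. Smaller lists, such as those of fetal Leydig cells and mast cells, are not drawn. The Sertoli (0.29, -0.36 and -0.26), respiratory (0.17, -0.10 and 0.20) and ribosomal (0.14, -0.14 and 0.13) medians changed sign between settings. Other medians drawn, among them those of pluripotency and meiosis entry, also crossed 0.

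Chromatin and germline defence genes, which are being reset in germ cells of this age, gave medians near 0. DNA methylation genes had 8 of 19 above 0 (median log2 fold change -0.05), piRNA pathway genes 11 of 23 (-0.04) and polycomb genes 19 of 29 (0.03). Without the deep libraries these were 8 (-0.06), 16 (0.09) and 23 (0.10), and without C3774.3 and C4228.1 they were 9 (-0.03), 10 (-0.02) and 22 (0.06). Dnmt3b, a de novo methyltransferase, stood at 5.98 normalized counts in C3774.3, at 2.34 to 2.79 in the other vehicle embryos and at 1.04 to 4.68 in the exposed embryos, a log2 fold change of -0.43. Asz1 and Morc1, both needed for transposon silencing in male germ cells, had 0.22 and -0.40, and the polycomb methyltransferase gene Ezh2 had 0.20. Of 28 imprinted genes 12 lay above 0 with a median of -0.02, against 13 (-0.04) and 11 (-0.11) in those settings. With all embryos 2 of the 28 had an unadjusted p under 0.05, both lower, a share to be read beside 1.17% of all genes, and 0 an adjusted one. Kcnq1ot1, the paternally expressed RNA that silences its neighbours, stood at 7.28, 4.83, 3.35, 4.95 and 4.39 against 2.11 to 3.92 (median 2.73). The vehicle embryo C4321.1 lay inside the exposed range, and the log2 fold change was -0.68 (standard error 0.32, 95% interval -1.34 to -0.03), -0.53 without the deep libraries.

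Proliferation genes, which fall as XY germ cells arrest, had 28 of 33 above 0 (23 without the deep libraries, 32 without the pair that stood apart) and a median log2 fold change of 0.09, or 0.13 without the deep libraries and 0.19 without C3774.3 and C4228.1. None had an adjusted p under 0.05. The mean log2 value of the list was highest in D1190.1, at 7.37, an embryo that both reduced settings keep. The other exposed embryos averaged 6.65 to 7.10, inside the vehicle range of 6.54 to 7.11. Nusap1, a spindle protein, stood at 244, 147, 132, 283 and 201 normalized counts in the vehicle embryos and at 171 to 264 (median 237) in the exposed embryos. C4232.2 and C4321.1 were the low embryos, the others overlapped, and the log2 fold change was 0.24. Genes of G1 cyclins and their inhibitors had 12 of 23 above 0 and a median of 0.02, with 17 (0.10) and 11 (-0.00) in those settings. Cdkn1b, the p27 inhibitor of the arrest, stood at 0.532 to 2.47 in the vehicle embryos and 0.603 to 1.27 in the exposed embryos (log2 fold change -0.39).

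Stress and innate sensing lists had small medians. Of 26 immediate early and heat shock genes 16 lay above 0 (median log2 fold change 0.07), 16 without the deep libraries (0.06) and 14 without C3774.3 and C4228.1 (0.05). Of 19 interferon and RNA sensing genes 14 lay above 0 (0.15), against 9 (-0.01) and 12 (0.13). Btg2, an antiproliferative immediate early gene, had 0.33, with 18.5 to 40.8 normalized counts in the exposed embryos and 15.6 to 30.5 in the vehicle embryos.

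Markers of the somatic cells that could pass the sort varied widely among embryos of the same group. In these libraries fewer cells of a type and less RNA per cell cannot be told apart. The summed level of the 16 Sertoli cell markers was 92.7, 385, 640, 681 and 1059 normalized counts in the vehicle embryos and 195 to 1591 (median 787) in the exposed embryos. C3774.3 was the lowest of the 11 and its counterpart C4228.1 among the highest, so the sum averaged 833 in exposed and 571 in vehicle embryos with all 11 (exact permutation p = 0.39) and 758 and 691 without the pair (p = 0.841). Cst9, the most abundant of these genes, stood at 18.6, 154, 384, 401 and 632 against 117 to 1135 (median 451). Of the 16 markers 12 lay above 0 with all embryos, 1 without the deep libraries and 2 without the pair, and their medians were 0.29, -0.36 and -0.26. Dhh was at 0 in C3774.3 and Fgf9 in D1190.2. The part of Sertoli cell RNA in the values of other genes was not tested.

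Apart from erythroid markers in D2580.2, the remaining somatic marker sums were small beside those of germ cells. Fetal Leydig cell markers summed to 61.9, 50.4, 52.9, 61.6 and 74.9 normalized counts in the vehicle embryos and 41.1 to 107 in the exposed embryos, with Fdx1, an electron carrier also found in other cells, supplying most. Of the 6 Leydig genes tested 3 lay above 0 with all embryos, 0 without the deep libraries and 0 without the pair, and their medians were 0.06, -0.45 and -0.25. Endothelial markers summed to 32.3 to 59.7 and 32.2 to 86.9 (2 of 5 above 0 in each setting), with Pecam1 most abundant and D1190.1 highest. Macrophage markers summed to 7.02 to 40.4 and 4.48 to 81.8 (8 of 11 above 0, against 9 and 8 in those settings), with Pf4 most abundant and again D1190.1 highest. Pf4 itself was at 0 in C3774.3, C4321.1, C4228.1 and D2506.3.

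Pregranulosa markers summed to 2.60, 5.44, 8.05, 3.45 and 5.46 normalized counts in the vehicle embryos and to 1.90 to 4.41 in the exposed embryos, with 0 of 3 tested genes above 0 in each setting and Rspo1 the most abundant. This difference had the smallest exact permutation p of 14 single measures per embryo, 0.13 (adjusted p 0.952), and 0.0476 without C3774.3 and C4228.1 (adjusted p 0.666). With all 6 and 5 embryos the smallest p this test can give is 0.00433, and without the pair that limit is higher. The test treats the littermates D1190.1 and D1190.2 as separate embryos. Stroma and mesonephros markers summed to 6.37 to 17.7 and 8.58 to 19.6 (5 of 6 above 0, 4 without the deep libraries and 4 without the pair). Their most abundant gene, Wt1, is also a Sertoli cell marker, so that sum is not separate from the Sertoli sum. Surface epithelium and keratinocyte markers summed to 23.8 to 39.5 and 19.7 to 43.2 (5 of 7 above 0, against 3 and 4). Adult alpha globin, whose reads Hba-a1 and Hba-a2 share, reached 479 in the vehicle embryo D2580.2 and at most 3.18 elsewhere, and it was the main erythroid marker there. Mast cell markers reached 44.4 in C4232.2, 28.3 in C4228.1 and 45.0 in D1190.1, mainly Cpa3, and were at 0 in D2580.2, C4322.2, D2506.3 and D2510.1. The part of these cell types in the comparison was not tested.

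Genes higher in XY than in XX libraries had a median whose sign turned with the libraries used, and genes higher in XX lay slightly below 0. Both lists were taken from vehicle embryos of F2 and F3, 12 XY and 12 XX, so that no embryo of the comparison entered the choice. Of 1008 tested XY-biased genes 607 (60.2%) lay above 0, with a median log2 fold change of 0.07, but the median was -0.06 without the deep libraries and -0.04 without C3774.3 and C4228.1. Of 1080 XX-biased genes 40.2% lay above 0, with a median of -0.06, and medians of -0.05 and -0.06 in those settings. In both lists 0 genes had an adjusted p under 0.05. Of the 16 Sertoli cell markers 13 are among the XY-biased genes, and the Sertoli medians turned in the same settings (0.29, -0.36 and -0.26). The list thus holds somatic genes, and their part in its median was not tested.

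The response in XX germ cells of the same generation, 5 exposed and 5 vehicle embryos, was compared with that in XY germ cells through the difference of the responses. With limma 0 of 13635 genes passed for that difference and 123 (0.902%) had an unadjusted p under 0.05, or 270 without C4228.1, 189 without C4605.1 and 112 without C4322.2. XY and XX embryos shared 4 exposed and 4 vehicle dams, and with dam as a random block 0 genes passed and 330 had an unadjusted p under 0.05. Both edgeR tests gave 0, with 187 (quasi-likelihood) and 210 (likelihood ratio) such genes, and limma gave 0 with 228 without the deep libraries and with 219 without the pair that stood apart. The difference was farthest from 0, by p, for Papolb, a testis poly(A) polymerase. It stood at 1.88, 0.796, 1.01, 0.460 and 0.798 normalized counts in XY vehicle embryos and at 0.106 to 0.643 (median 0.366) in XY exposed embryos, and its log2 fold change was -0.77 in XY and 0.64 in XX. Cage1, another testis gene, had -0.76 and 0.70, at under 2 normalized counts in each of the 11 XY embryos. Taf1, the large subunit of TFIID, was the most abundant of the 5 genes named for this comparison. It stood at 26.4, 26.7, 32.1, 23.9 and 20.2 in XY vehicle embryos and at 25.1 to 45.0 (median 33.0) in XY exposed embryos, against 43.3 to 64.3 and 35.1 to 47.2 in XX. The log2 fold changes were 0.38 and -0.44, a difference of 0.82 (standard error 0.25) that did not pass adjustment. For Lass6 and Cebpb the XX values were 0.28 and 0.18.

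The other doses share the vehicle embryos with the 0.2 mg/kg-day group, so their values against vehicle are set side by side and the doses were tested directly against each other. Between 0.2 and 2 mg/kg-day (8 XY embryos from 7 dams) 0 genes passed with limma and 362 (2.65%) had an unadjusted p under 0.05, or 230 without the deep libraries, 281 with dam as a random block, 578 without the pair that stood apart and 595 without D1190.1. Both edgeR tests gave 0, with 410 (quasi-likelihood) and 473 (likelihood ratio) such genes. Notch1, a receptor, was among the 5 with the smallest p, at a difference of -1.07 on the log2 scale, with 0.275 to 1.67 normalized counts in the 0.2 mg/kg-day embryos and 0.539 to 4.34 in the 2 mg/kg-day embryos. Between 0.2 and 0.033 mg/kg-day (2 XY embryos) 0 passed and 696 (5.1%) had an unadjusted p under 0.05. Jsrp1 and Defb36 had the differences farthest from 0 by p, -1.85 and -2.29, set by 2 embryos. Both are among the XY-biased genes, whose median at 0.033 mg/kg-day against vehicle was 0.38. The medians of Sertoli, Leydig and macrophage markers at that dose were 1.32, 1.04 and 1.33, so a part of somatic RNA in these differences cannot be told apart from dose. Against vehicle, the log2 fold changes at 0.033, 0.2 and 2 mg/kg-day were 0.49, 1.02 and 0.06 for Lass6, -0.23, 0.23 and -0.09 for Tiparp, -0.35, -0.23 and 0.32 for Cyp1b1, and -0.56, -0.85 and -0.35 for Cebpb.

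Between generations, the XY response at 0.2 mg/kg-day in F1 was tested against that in F2 (3 exposed, 6 vehicle) and F3 (4 exposed from 3 dams, 6 vehicle) over 13288 genes. F0 dams were dosed to E11.5 for F1 and to E15.5 for F2 and F3, so generation and length of dosing cannot be told apart. With limma, 0 genes passed (0%) for F1 against F2, with 513 at an unadjusted p under 0.05, and for F1 against F3, 0 passed (0%), with 1088. Dsp, the desmosome protein desmoplakin, had the smallest p for F2: its log2 fold change was -2.02 in F2, the only gene past the threshold there, and 0.25 in F1. In the F1 embryos Dsp stood at 4.09, 2.01, 1.79, 3.68 and 6.12 normalized counts (vehicle) and at 1.81 to 5.4 (exposed), ranges that overlap. In F3 6 genes passed against vehicle, 2 higher and 4 lower. Phlda2, an imprinted growth regulator, was 1 of them at 2.77, where the littermates D1390.5 and D1390.1 stood at 775 and 94.2 normalized counts and the other 2 exposed embryos at 2.77 and 10.8. It had -0.94 in F1, and the F1 response minus the F3 response was -3.70 (standard error 0.83, adjusted p = 0.0864). Spp1, for osteopontin, had -1.64 in F2 and a mean of 90.4 normalized counts in exposed and 71.6 in vehicle F1 embryos.

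By position, medians were compared between whole chromosomes only. Of the tested genes 13510 could be placed on RefSeq chromosomes. Medians of the 19 autosomes lay between -0.03 (chromosome 7) and 0.04 (chromosome 12), that of 557 X-linked genes was 0.04, and that of 11 Y-linked genes was 0.04. The share of genes above 0 ran from 44.3% on chromosome 7 to 57.7% on chromosome 12 among the autosomes, and these differences were not tested. Ddx3y, a Y-linked RNA helicase, had the smallest p among the Y-linked genes listed to check sex, which are fewer than the 11 above. It stood at 10.3, 13.4, 16.3, 13 and 6.65 normalized counts in the vehicle embryos and at 13.7 to 17.2 (median 14.7) in the exposed embryos (log2 fold change 0.39).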

How the data were processed

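Expression was measured by oligo(dT)-primed RNA sequencing of sorted germ cells, 1 library per embryo. The authors trimmed paired reads, aligned them to GRCm38 with STAR, counted exons with Rsubread and deposited edgeR TMM-normalized counts, scaled to library size (unit: signal), without raw counts. Whole reads were recovered from the deposited values (tolerance 0.05) and used for edgeR, DESeq2 and the depth per embryo. A value at or under 3 reads was read as the floor. The paper's methods name neither molecular identifiers nor a removal of duplicate reads, so duplicate reads may remain.

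All 38 F1 embryos in 8 sex-by-dose groups were fitted at once with limma 3.58.1 (R 4.3.3) on log2 of the value plus 0.5, with a trend in the variance, over genes with a mean of at least 0.5, and p values were adjusted by Benjamini-Hochberg. Responses in F2 and F3 were fitted with the embryos of all 24 groups. Tests are two-sided. Single values per embryo were compared by the exact permutation test (SciPy 1.17.1, Python 3.11.15), adjusted over 14 measures. Alternatives were edgeR 4.0.16, DESeq2 1.42.0, other pseudocounts, filters and scalings, dam as a block, littermates averaged, a depth term, each embryo left out, and the groups of libraries described above. Scripts were tested on simulated data.

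Genes named are those past the threshold, otherwise the 12 higher and 12 lower with the smallest p among those with a mean of at least 5 and 1.5-fold apart, then for each list the member with the smallest p in each direction, the most abundant marker, the tested AHR battery, genes the study names, and the 5 with the smallest p in the other comparisons. Some genes that this rule names are left out, with their alternatives. The 9 genes without overlap were chosen after their values were seen, as were Ubb, Pkm, Cct3 and Hbb-y, and Dhh and Fgf9 for values of 0. Members and lists were chosen with earlier results of these data known. Positions and promoters are from RefSeq on GRCm38.p6, and figures were drawn with matplotlib 3.10.9.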

Additional observations from a re-analysis of the deposited data

Results flagged for a closer look

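Within each group of XY embryos, the highest or lowest value was compared with its neighbour, and 14 of 92 groups of values (15.2%) held an embryo far from the others; chance flags about 1 in 20 groups when values are independent and normally spread, which was not tested for these measures. The exposed C4228.1 accounted for the reads (23862210, the others 6209687 to 9675494), genes with a read (15268, the others 14044 to 14492) and the sum of the normalized counts (1594837, the others 888378 to 1133238). It also accounted for the percent of that sum from Ubb and its copy (17, the others 6.2 to 8.57). Any reads shared by these genes may count under both names. C4228.1 was also high for LOC100862398 (27.9) and LOC100862365 (30.7), which may share reads.

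The vehicle embryo C3774.3 was high for the percent from Ubb and its copy (15, the others 7.54 to 9.28), the summed germ cell markers (5864, the others 3889 to 4445) and Sema4d (13.1, the others 4.52 to 5.75). C4232.2 was high for reads (87240533, the others 8073992 to 23833292) and for mast cell markers (44.4, the others 0 to 3.83). D1190.1 was high for Ddx19b (60.7, the others 15.3 to 29.9) and for endothelial markers (86.9, the others 32.2 to 41.7), of which Pecam1 was 52.6. D2580.2 was high for erythroid markers (958, the others 0.46 to 7.02), a sum in which the reads shared by Hba-a1 and Hba-a2 count under both names. The cause of these differences was not tested.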

How the results depend on the processing

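The count of genes past the threshold was 0 in 25 of 27 settings for the main comparison, the exceptions being DESeq2 (1) and an unadjusted p with a 1.5-fold difference (120). It was 0 in all 22 settings for the XY and XX difference and in all 22 for 0.2 against 2 mg/kg-day. Sex-biased genes numbered 452 at a 4-fold minimum instead of 2106. Of 132 named gene results 97 kept their direction in every setting and 35 did not. None of the 132 had an adjusted p under 0.05 in any setting that gives one, and the cause was not tested.

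Log2 fold changes that turned, by setting, were Stra8 0.173 and Hba-x -0.0133 (pseudocount 0.1); Cpa3 0.127 (pseudocount 1); Ahr -0.137, Ptges3 -0.089, Nanos3 -0.0211, Fdx1 0.0106 and Cpa3 0.775 (edgeR quasi-likelihood); Ahr -0.144, Ptges3 -0.089, Nanos3 -0.0211, Fdx1 0.0115 and Cpa3 0.82 (likelihood ratio); Ahr -0.142, Ptges3 -0.0821, Nanos3 -0.00769, Fdx1 0.0193 and Cpa3 0.812 (DESeq2); and Ahr -0.0146, Ephx1 -0.00504, Ptges3 -0.0148 and Pecam1 -0.0235 (upper quartile). With dam as a block they were Ephx1 -0.065, Hsp90ab1 -0.000113, Tdgf1 -0.0275, Fdx1 0.00944, Pecam1 -0.107 and Cpa3 0.065; with littermates averaged Tdgf1 -0.112, Lefty2 -0.014, Fdx1 0.0214, Pecam1 -0.0964 and Cpa3 0.146; and with a depth term Ugt1a6a 0.0898, Hsp90ab1 -0.11, Fdx1 0.0486, Pecam1 -0.156, Hba-x -0.161 and Cpa3 0.242. Without the deep libraries they were Arnt 0.129, Gsta1 -0.848, Lpcat2 -0.217, Stra8 0.252, Nanos3 -0.0714, Srebf2 0.0467, Sgce -0.0473, Uqcrb -0.00988, Ndufv1 0.0137, Dppa3 -0.00458, Cst9 -0.471, Hsd17b3 -0.394, Wt1 -0.0378, Cma1 0.286, Cpa3 0.769 and Sfn 0.115, and Hba-x reached 0. Without C3774.3 and C4228.1 they were Arnt 0.0754, Gsta1 -0.837, Lpcat2 -0.27, Eif2s3y -0.00467, Cdc6 0.069, Sgce -0.0901, Cst9 -0.078, Hsd17b3 -0.226, Hba-x -0.0202 and Sfn 0.00174, and the exposed minus vehicle difference in summed markers turned for Leydig (-6.764), endothelial (4.484) and mast cells (-2.569). These last 2 settings were chosen after seeing the data.

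With each embryo left out in turn, ranges that crossed 0 were Ahr -0.216 to 0.272, Gsta1 -0.408 to 0.408, Ptges3 -0.331 to 0.494, Lhx1 -0.395 to 0.097, Eif2s3y -0.0288 to 0.143, Nanos3 -0.095 to 0.259, Hsp90ab1 -0.0254 to 0.192, Ephx1 -0.317 to 0.232, Tdgf1 -0.225 to 0.276, Lefty2 -0.105 to 0.108, Dazl -0.0759 to 0.184, Nqo1 -0.255 to 0.0286, Cyp1b1 -0.416 to 0.0494, Lpcat2 -0.111 to 0.403, Rybp -0.548 to 0.00828, Stra8 -0.808 to 0.409, Hsd17b3 -0.0566 to 0.679, Fdx1 -0.236 to 0.0535, Tek -0.0406 to 0.386, Pecam1 -0.224 to 0.239, Pf4 -1.59 to 0.0918, Hba-x -0.0514 to 0.0368, Cma1 -1.3 to 0.178 and Cpa3 -0.851 to 0.905. The number of genes at an unadjusted p under 0.05 ran from 128 to 304 for the main comparison, and for the XY and XX difference from 112 to 270, the highest without C4228.1 (270) and C4605.1 (189). Values rest on 6 and 5 embryos of unequal depth, and genes at a few reads are limited by counting.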
